A study of Homo sapiens with 4 samples.

Results

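Mitochondrial ribosomal protein genes were taken as the genes of the deposited table whose symbol consists of MRPL or MRPS, a number and at most 1 further letter. This gave 73 of the 10147 genes listed, of which 46 belong by name to the large subunit (*MRPL*) and 27 to the small subunit (*MRPS*) of the mitochondrial ribosome. The mitochondrial ribosome, or mitoribosome, translates the mRNAs encoded by mitochondrial DNA, all of which specify core subunits of the respiratory chain and the ATP synthase. Its rRNAs are made inside the organelle, whereas its proteins are encoded in the nucleus, transcribed by Pol II, translated in the cytosol and imported. The large subunit forms the peptide bond and holds the exit tunnel for the nascent chain, and the small subunit reads the mRNA.

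RNA synthesis was measured by TT-seq, which labels newly made RNA with 4-thiouridine (4sU), in K562 cells, a human erythroleukemia line, whose IWS1 carries a degradation tag (dTAG-IWS1). Control cells received the solvent DMSO, and dIWS1 cells received 500 nM dTAG7, a ligand that directs the tagged protein to degradation. Both groups carried the tag, were treated for 1 h, and were labelled with 500 µM 4sU for 5 min, with 2 libraries per group in the labels. IWS1 (interacts with SPT6) is a Pol II elongation factor. The comparison addresses how RNA synthesis changes when IWS1 is removed.

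The deposited table holds 1 mean per gene rather than a value per library, and the reads of each column were recovered from that mean. Only 3 different columns were found. The control column entered the means 2 times and was counted here as 1 sample, and the 2 dIWS1 columns differed from each other. The spread between samples is therefore known for dIWS1 only, and each fold change rests on the same control column. The reads in genes came to 29832118 for the control, 20684301 for dIWS1 column 1 and 20886697 for column 2, and all values below were scaled by the authors' spike-in size factors. With spike-ins added to the lysate, fewer cells and less labelled RNA per cell cannot be told apart. The erythroid genes *GATA1*, *HBG1*, *HBG2*, *HBZ* and *TFRC* all had reads in the control, from 129 for *HBG2* to 16164 for *TFRC*. *IWS1* itself had 3684, 2334 and 2427 reads in the control and the dIWS1 columns, a log2 fold change of −0.55 ± 0.18 (SE; limma, adjusted p = 0.00666). The ligand acts on the protein, so this value does not check the labels.

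RNA synthesis of the mitochondrial ribosomal protein genes fell with that of most genes. By limma with Benjamini-Hochberg adjustment over all genes tested (adjusted p under 0.05), 42 of the 73 members were lower in dIWS1 and 0 were higher. The same test called 54.7% of the 10027 genes tested lower and 0.0798% higher, so the share of members called, 57.5%, was near that of all genes. At an unadjusted p under 0.05, 46 members were lower and 0 higher. With limma voom 50 members were lower and 0 higher, against 6508 and 12 of the 10027 genes tested. The median log2 fold change was −0.42 over the members, with quartiles of −0.58 and −0.24, and −0.42 over all genes tested. Every member except *MRPL16* had a fitted value below 0, as did 9689 of the 10027 genes tested. Of the members 69 of 73 were below 0 in both dIWS1 columns, against 9293 of all genes tested. Column 1 lay below column 2 in 67 of the 73 members, with medians of −0.51 and −0.36. Over all genes it did so in 7945, with medians of −0.47 and −0.37.

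Because nearly all genes fell, each member was also placed against the median gene by recentring every column on it, which moved the median of all genes by 0.42 on the log2 scale. On that scale 4 members were lower than the median gene and 12 were higher, against 13.4% and 14.2% of all genes tested. The 4 were *MRPL34*, *MRPL45*, *MRPS26* and *MRPS34*. The 12 were *MRPL1*, *MRPL13*, *MRPL16*, *MRPL22*, *MRPL32*, *MRPL33*, *MRPL39* and *MRPL47* of the large subunit and *MRPS5*, *MRPS18C*, *MRPS35* and *MRPS36* of the small subunit. The share of members higher than the median gene was near that of all genes, and the share lower was smaller than that of all genes. This difference in shares was not tested.

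**Figure D1:**
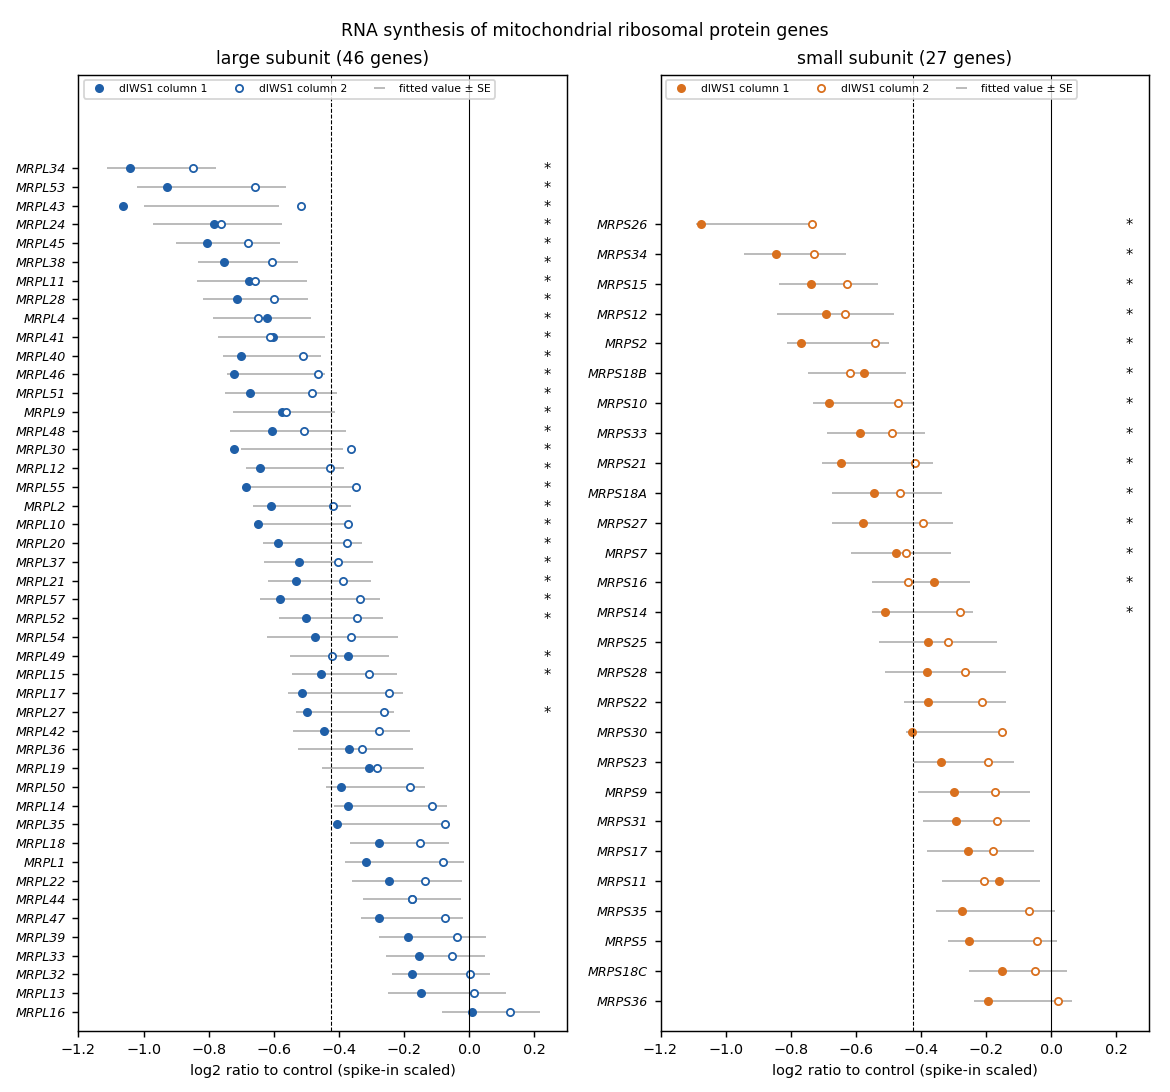
Log2 ratio to the control column (horizontal axis, spike-in scaled) of each mitochondrial ribosomal protein gene, large subunit on the left and small subunit on the right, sorted by fitted value. Filled points are dIWS1 column 1, open points column 2, grey lines the fitted value ± SE, stars an adjusted p under 0.05, and the dashed line the median of all genes tested. Of the 73 genes, 69 have both points below 0, against 9293 of the 10027 genes tested, and *MRPL16* alone of the members has both above 0.

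The 250 bases before an annotated transcript start of the lowest and the highest gene of each subunit are shown here, since these genes mark the range of the response. All were taken from RefSeq (GRCh38.p14) and are written 5′ to 3′ on the strand of the gene. Capitals mark matches, on either strand, to the promoter motifs named further on.
MRPL34, chr19:17305622-17305871, plus strand: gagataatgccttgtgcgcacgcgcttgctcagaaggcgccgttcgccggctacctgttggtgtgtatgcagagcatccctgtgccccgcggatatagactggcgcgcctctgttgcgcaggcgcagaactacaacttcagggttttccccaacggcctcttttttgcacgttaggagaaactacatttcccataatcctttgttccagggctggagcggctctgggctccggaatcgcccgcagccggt
MRPS26, chr20:3045802-3046051, plus strand: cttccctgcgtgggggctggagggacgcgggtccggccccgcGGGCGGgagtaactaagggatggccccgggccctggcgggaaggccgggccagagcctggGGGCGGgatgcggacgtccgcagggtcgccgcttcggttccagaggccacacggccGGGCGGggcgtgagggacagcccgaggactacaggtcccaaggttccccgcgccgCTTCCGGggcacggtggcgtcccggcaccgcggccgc
MRPL16, chr11:59810779-59811028, minus strand: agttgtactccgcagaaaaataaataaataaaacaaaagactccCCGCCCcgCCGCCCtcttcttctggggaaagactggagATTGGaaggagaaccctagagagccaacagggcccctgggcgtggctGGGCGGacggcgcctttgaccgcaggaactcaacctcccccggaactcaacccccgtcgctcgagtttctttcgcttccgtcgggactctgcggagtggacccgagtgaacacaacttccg
MRPS36, chr5:69217510-69217759, plus strand: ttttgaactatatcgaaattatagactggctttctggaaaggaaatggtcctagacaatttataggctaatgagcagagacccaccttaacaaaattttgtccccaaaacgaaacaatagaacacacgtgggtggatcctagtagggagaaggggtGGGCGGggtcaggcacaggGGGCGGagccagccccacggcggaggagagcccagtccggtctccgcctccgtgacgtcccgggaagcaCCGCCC
The 250 bases before *MRPS26* had a GC content of 77.2%, those before *MRPL34* 58.4%, those before *MRPL16* 58% and those before *MRPS36* 54.4%. The GGGCGG letters were found 3 times each before *MRPS26*, *MRPL16* and *MRPS36*, and none of the motifs searched was found before *MRPL34*. The start used for *MRPL34* lies inside its RefSeq gene span, which begins further upstream at another start, so this sequence and the span-based values of that gene refer to different starts. *MRPS26* also held 1 match to CCGGAAG, at 37 to 31 bases before the start, and *MRPL16* 1 match to CCAAT. In the longer window searched further on, which also reaches past the start, *MRPL16* had the CCGGAAG letters too.

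In the large subunit, 28 of 46 genes were lower in dIWS1 and none was higher, with a median of −0.46. The lowest was *MRPL34*, which encodes bL34m, a protein with a bacterial counterpart. It had 279 reads in the control, 133 in dIWS1 column 1 and 141 in column 2, and a log2 fold change of −0.94 ± 0.17 (SE; adjusted p = 6.12e-07). Both dIWS1 columns were far below the control. The gene lies at chr19:17292573-17306843 in RefSeq, and this span shares 10853 bases with that of *ABHD8* on the opposite strand, whose log2 fold change was 0.02. The authors counted reads by strand and removed overlapping genes, and the span they used for *MRPL34* is not given in the sources used here.

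*MRPL53* and *MRPL43*, both particular to mitochondria, came next. *MRPL53* had 99, 51 and 57 reads (−0.79 ± 0.23, adjusted p = 0.00229), the smallest control count of any member. *MRPL43* had 126, 59 and 80 reads (−0.79 ± 0.21, adjusted p = 0.000825), and its columns stood further apart than those of the other members, with log2 ratios of −1.06 and −0.52. *MRPL24*, the counterpart of a bacterial protein that starts assembly of the large subunit, had 142, 81 and 76 reads (−0.77 ± 0.20, adjusted p = 0.000629). Its RefSeq span shares 610 bases with that of *HDGF* on the same strand, whose log2 fold change was −0.45. In *MRPL53*, *MRPL43* and *MRPL24* both dIWS1 columns lay below the control, as in 69 of the 73 members and 9293 of the 10027 genes tested.

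*MRPL45*, a protein near the exit tunnel that faces the inner membrane, was more deeply covered, with 1430, 805 and 813 reads (−0.74 ± 0.16, adjusted p = 4.72e-05). It was also lower than the median gene (−0.32, adjusted p = 0.005). A copy listed as the pseudogene *MRPL45P2* had 1550, 855 and 773 reads and a log2 fold change of −0.85. Whether reads of this pair were assigned to the right gene was not tested, and the authors kept unique alignments. *MRPL38*, of the central protuberance, had 420, 245 and 251 reads (−0.68 ± 0.15, adjusted p = 0.000101). RNA synthesis also fell in the genes for the stalk that recruits translation factors, *MRPL10* (−0.51, adjusted p = 0.00288) and *MRPL12* (−0.54, adjusted p = 0.00183). The same held for *MRPL11*, whose protein lies at the base of the stalk (−0.67, adjusted p = 0.000508). Against the median gene none of them passed the limma test (adjusted p = 0.648 for *MRPL10*, 0.551 for *MRPL12* and 0.288 for *MRPL11*).

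At the other end of the large subunit stood *MRPL16*, whose bacterial counterpart lies near the peptidyl transferase center. It had 390, 386 and 387 reads, and log2 ratios of 0.01 and 0.12, for a fitted value of 0.07 ± 0.15 (adjusted p = 0.695). Its reads barely differed between columns, and against the median gene it was higher by 0.49 (adjusted p = 0.00109). The gene lies at chr11:59806140-59810778.

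The next genes from the top had fitted values between −0.18 and −0.07 and did not pass the test. *MRPL13*, whose bacterial counterpart is needed early in assembly, had 3307, 2933 and 3040 reads (−0.07 ± 0.18, adjusted p = 0.739), and *MRPL32*, whose precursor is processed by the m-AAA protease, had 419, 365 and 382 (−0.09 ± 0.15, adjusted p = 0.606). *MRPL33* had 624, 551 and 548 reads (−0.10 ± 0.15, adjusted p = 0.538). *MRPL39*, particular to mitochondria, had 1340, 1156 and 1188 (−0.11 ± 0.16, adjusted p = 0.533). In *MRPL13* and *MRPL32* the scaled ratio of column 2 was 0.01 and 0.00, at the level of the control. *MRPL47*, with 905, 735 and 783 reads, had a value of −0.18 ± 0.16 (adjusted p = 0.314). Relative to the median gene these genes were higher by 0.25 to 0.35, with adjusted p from 5.17e-05 for *MRPL13* to 0.0488 for *MRPL47*.

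In the small subunit, 14 of 27 genes were lower in dIWS1 and none was higher, with a median of −0.40. *MRPS26*, particular to mitochondria, was the lowest, with 185, 86 and 101 reads in the control and the dIWS1 columns (−0.91 ± 0.19, adjusted p = 1.87e-05). Both columns were far below the control, at log2 ratios of −1.08 and −0.74. The gene lies at chr20:3046052-3048250. *MRPS34*, also particular to mitochondria, had 386, 211 and 212 reads (−0.79 ± 0.16, adjusted p = 9.23e-06), and its span shares 325 bases with *EME2* on the opposite strand. Both genes were also lower than the median gene, by −0.48 (adjusted p = 0.047) and −0.37 (adjusted p = 0.0445).

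*MRPS15*, *MRPS12* and *MRPS2*, which have bacterial counterparts, followed. *MRPS15* had 803, 473 and 473 reads (−0.68 ± 0.15, adjusted p = 7.84e-05). *MRPS12*, the counterpart of a protein of the decoding center, had 181, 110 and 106 (−0.66 ± 0.18, adjusted p = 0.00125), and *MRPS2* had 350, 202 and 219 (−0.65 ± 0.16, adjusted p = 0.000248). In these genes too both dIWS1 columns lay below the control.

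The highest small subunit gene was *MRPS36*, at chr5:69217760-69230158, with 559, 481 and 516 reads and a value of −0.09 ± 0.15 (adjusted p = 0.606). RefSeq lists it as *KGD4*, and its protein is now assigned to the oxoglutarate dehydrogenase complex rather than to the mitoribosome. *MRPS18C* had 557, 493 and 490 reads (−0.10 ± 0.15, adjusted p = 0.547). *MRPS5*, whose bacterial counterpart lines the mRNA entry, had 1566, 1293 and 1383 (−0.15 ± 0.17, adjusted p = 0.426). These values were smaller than their SE, and each gene was higher than the median gene, by 0.34, 0.32 and 0.27. *MRPS35* had 4379, 3561 and 3800 reads (−0.17 ± 0.18, adjusted p = 0.398), *MRPS11* 596, 524 and 470 (−0.18 ± 0.15, adjusted p = 0.273) and *MRPS17* 209, 172 and 168 (−0.22 ± 0.17, adjusted p = 0.237). The value of *MRPS35* was also higher than that of the median gene (0.25, adjusted p = 0.00493), whereas *MRPS11* and *MRPS17* did not pass that test.

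The 3 paralogues related to bacterial S18 had different values. *MRPS18B* had 558, 368 and 331 reads (−0.60 ± 0.15, adjusted p = 0.000504), *MRPS18A* 1899, 1281 and 1252 (−0.51 ± 0.17, adjusted p = 0.00792) and *MRPS18C* the −0.10 given above. The log2 ratios of *MRPS18C*, −0.15 and −0.05, did not overlap those of *MRPS18A*, −0.54 and −0.47, or *MRPS18B*, −0.58 and −0.62, and the difference between the paralogues was not tested. *MRPS18A* sits in the large subunit despite its name, as does *MRPS30*, which had 951, 695 and 779 reads (−0.29 ± 0.16, adjusted p = 0.0974).

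Large and small subunit genes differed little. The median was −0.46 in the large and −0.40 in the small subunit, a difference of −0.064. Of the large subunit genes 60.9% were called lower, of the small 51.9% and of all genes tested 54.7%. In dIWS1 column 1 the medians differed by −0.099 (−0.53 against −0.43) and in column 2 by −0.047 (−0.36 against −0.32). These gaps were smaller than that between the columns within each subunit. When reads were summed over each subunit, which gives long genes more weight, the sign turned, with the large subunit higher by 0.017 in column 1 and by 0.039 in column 2. Counting *MRPS30* and *MRPS18A* as large subunit genes left the median difference at −0.064 and that of column 2 at −0.047, but widened that of column 1 to −0.145 (−0.53 against −0.38), more than the gap between the columns of the small subunit so counted (−0.38 and −0.32). The 2 subunits overlapped over almost the whole range, from −0.94 to 0.07 in the large and from −0.91 to −0.09 in the small subunit. The −0.09 is that of *MRPS36*, which both counts kept in the small subunit though its protein is no longer assigned to the mitoribosome. The next small subunit gene, *MRPS18C*, had −0.10. Genes are not replicates, so the difference between the subunits was not tested.

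**Figure D2:**
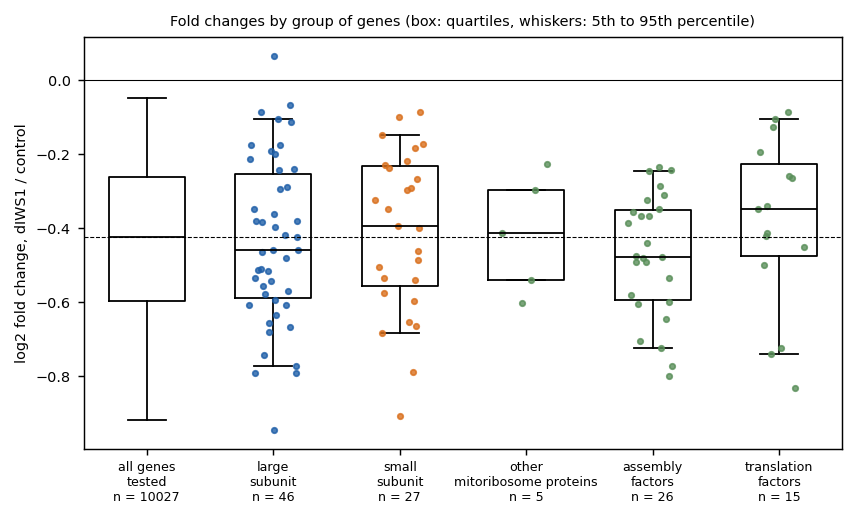
Log2 fold change, dIWS1 over control (vertical axis), of all 10027 genes tested, of the large and small subunit genes, and of 3 lists of other genes of mitochondrial translation. Boxes span the quartiles with the median as a line, whiskers the 5th to 95th percentile, points single genes, and the dashed line the median of all genes; every group has its median near that line, from −0.48 for the assembly factors to −0.35 for the translation factors.

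Proteins with a bacterial counterpart and those particular to mitochondria were also set side by side. Of 43 genes with a counterpart, 24 (55.8%) were lower (median −0.40), and of 30 particular to mitochondria, 18 (60%) were lower (median −0.46). Both shares were near the 54.7% of all genes tested (median −0.42). With the subunits taken by gene name, the order differed between them. Among large subunit genes the median was −0.52 for those particular to mitochondria (14 of 19 lower) and −0.38 for those with a counterpart (14 of 27). Among small subunit genes it was −0.30 for those particular to mitochondria (4 of 11) and −0.43 for those with a counterpart (10 of 16). These are counts over few genes, without a test. The small subunit groups include *MRPS30* and *MRPS18A*, which sit in the large subunit, and *MRPS36*, which is no longer assigned to the mitoribosome. The comparison was not repeated without them, so the order in the small subunit may depend on these genes.

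The level of synthesis per length was higher in the median member than in the median gene. Scaled reads per kb of RefSeq span in the control had a median of 72.5 over the members and 41.2 over all genes tested, and the levels of the large (66.6) and small subunit genes (80.6) were close. The highest large subunit levels were those of *MRPL41* (386), *MRPL14* (163) and *MRPL51* (148). *MRPL41*, a short gene with 264, 171 and 157 reads, fell (−0.61 ± 0.16, adjusted p = 0.00111), and so did *MRPL51*, with 206, 127 and 134 (−0.58 ± 0.17, adjusted p = 0.00316). *MRPL14*, whose protein binds the assembly factor MALSU1, had 2310, 1756 and 1945 reads and did not pass the test (−0.24 ± 0.17, adjusted p = 0.213).

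In the small subunit the highest levels per kb were those of *MRPS34* (308), *MRPS25* (176) and *MRPS16* (157). *MRPS25* had 4096, 3102 and 2995 reads (−0.35 ± 0.18, adjusted p = 0.0893), and its span shares 7023 bases with *NR2C2* on the opposite strand. *MRPS16* had 603, 462 and 405 reads and fell (−0.40 ± 0.15, adjusted p = 0.0188). Spearman's rho between level and fold change was −0.18 over the members (n = 73 genes that share the same 3 columns) and 0.15 over all genes. It was −0.03 in the large and −0.40 in the small subunit, and this difference was not tested.

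**Figure D3:**
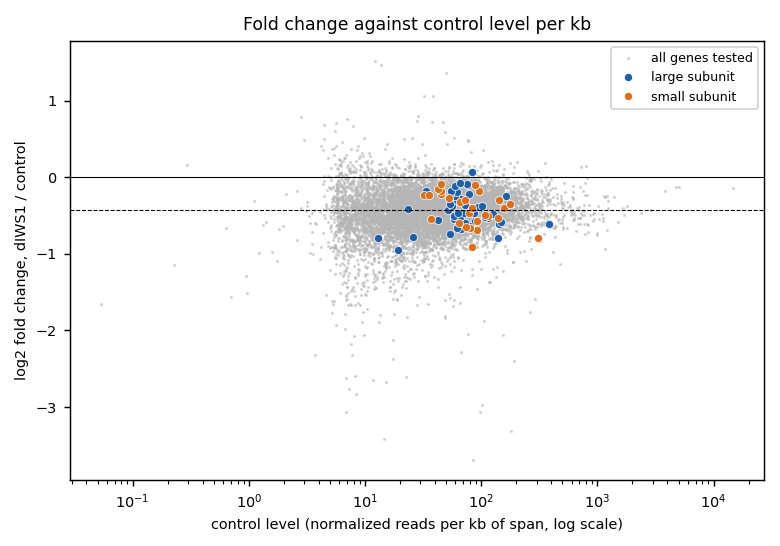
Log2 fold change, dIWS1 over control, against the control level in scaled reads per kb of gene span (log axis), with all genes tested in grey, large subunit genes in blue and small subunit genes in orange. The members lie mostly to the right of the grey cloud's middle (median 72.5 against 41.2), and the genes highest per kb, *MRPL41* and *MRPS34*, lie below the dashed median of all genes.

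The fold changes of the members varied with the base composition of the gene. Over the 73 members, Spearman's rho between the log2 fold change and the GC content of the gene span was −0.69, and it was −0.68 in the large and −0.60 in the small subunit. It was −0.63 in dIWS1 column 1 and −0.70 in column 2, and over 9979 genes tested it was −0.34. These are descriptions across genes, all of which share the control column. The members were then placed in 4 GC classes, cut at the quartiles of all genes (39.8%, 44.39% and 51.91%). In the lowest class 1 of 17 members, *MRPS27*, was lower in dIWS1 (median −0.20), against 38.4% of all genes in that class (median −0.31). In the second class 7 of 14 were lower (median −0.34), against 45.1% of all genes, and in the third 20 of 26 (median −0.46), against 62.1%. In the highest class 14 of 16 were lower (median −0.66), against 73.2% of all genes (median −0.55).

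Members at the ends of the GC range followed this order in part. *MRPL13*, with the lowest GC content of its subunit at 34.9%, had a value of −0.07, and *MRPS26* and *MRPS34*, at 60.3% and 65.2%, the lowest values of theirs. *MRPL41*, with the highest GC content at 68.4%, had a value of −0.61, and *MRPS9* and *MRPS30*, at 36.6% and 36.8%, had −0.24 and −0.29, so none of these was at the end of its subunit. Genes outside this order, chosen after their values were seen, were *MRPL36*, which had 56.0% GC and a value of −0.35, and *MRPS27*, which had 38.9% GC and 10969, 7221 and 7603 reads (−0.49 ± 0.19, adjusted p = 0.0204). The rho between control reads and the fold change was 0.42 over the members and 0.08 over all genes tested. The parts of base composition, length and read number in these values were not tested.

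**Figure D4:**
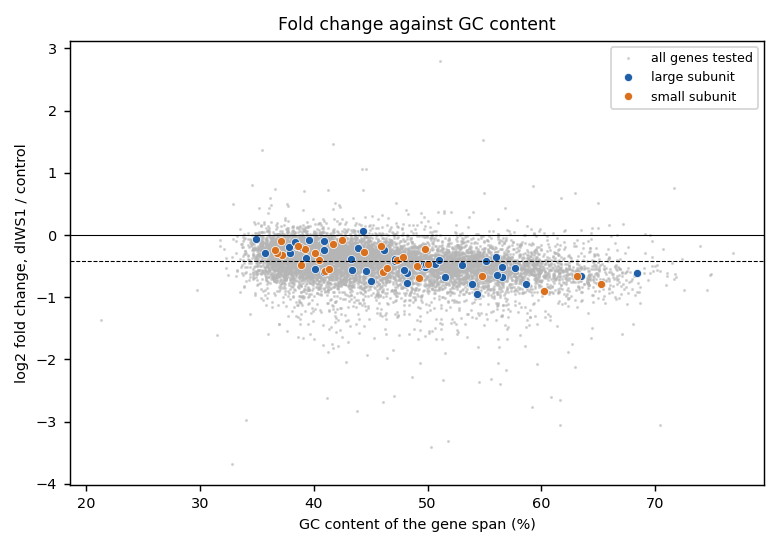
Log2 fold change, dIWS1 over control, against the GC content of the gene span in percent, with all genes tested in grey, large subunit genes in blue and small subunit genes in orange. Members of the lowest GC class have a median of −0.20 and those of the highest −0.66, on both sides of the dashed median of all genes (−0.42).

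The members are short genes, with a median span of 8618 bp against 27596 bp for all genes tested. In the shortest of 4 length classes, cut at the quartiles of all gene spans (up to 10869 bp), 30 of 40 members were lower (median −0.52), against 53.8% of all genes of that class (median −0.48), and the share was 75% in each subunit. In the second class 10 of 22 were lower (median −0.32), against 54.2%. In the third class, up to 64008 bp, 0 of 7 were lower by limma (median −0.19), against 45.2% of all genes (median −0.34), with 1 of 7 at an unadjusted p under 0.05 and 1 of 7 by limma voom. These 7 genes had a median GC content of 38.8%, against 49.8% in the 40 shortest. Of the 4 longest members *MRPL48* and *MRPS27* were lower, and *MRPL1* (−0.20) and *MRPS28* (−0.32) did not pass the test. The median of the 4 was −0.41, and of all genes in this class 65.5% were lower (median −0.49). Length was related to the fold change with a rho of 0.43 over the members and −0.01 over all genes.

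Sequences from 250 bases before to 50 bases after the start were in the RefSeq table for 66 of the 73 members and 8021 of the genes tested, and 5 motifs were searched in them on both strands by their letters. CCGGAAG, an ETS factor motif, was found in 28 of the 66 (42.4%) against 22.5% of all promoters, and GATGGCGG, a YY1 motif, in 12 (18.2%) against 5.60%. GCATGCGC, a motif of NRF1, a regulator of nuclear genes for mitochondrial proteins, was in 6 (9.09%) against 6.30%. GGGCGG, an SP/KLF motif, was in 39 (59.1%) against 74.3%, and CCAAT, an NF-Y motif, in 20 (30.3%) against 37.8%. ETS letters were about as common in the large (40%) as in the small subunit (46.2%).

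Members with and without these letters had overlapping fold changes. The 28 with the ETS letters had a median of −0.52 and 19 lower, and the 38 without −0.39 and 19 lower, whereas over all genes the 1804 with these letters had a median of −0.42 and 56.5% lower. The 12 with the YY1 letters had a median of −0.39 and the 54 without −0.46. The 6 with the NRF1 letters were *MRPL17*, *MRPL22*, *MRPL32*, *MRPL52*, *MRPS18B* and *MRPS18C*. Their median was −0.29, that of the 60 without −0.46, and that of all 505 genes with these letters −0.44. The 20 members with the NF-Y letters had a median of −0.34 and the 46 without −0.46. For the SP/KLF letters it was −0.49 in the 39 with and −0.42 in the 27 without. A match is a description of the letters and not evidence of binding.

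Of the 66 members, 24 (36.4%) had a neighbour that starts within 1000 bp on the opposite strand, against 30.1% of all genes. *MRPL46* and *MRPS11* form such a pair with each other, their starts 320 bp apart, and so a large and a small subunit gene share a start region. The 250 bases before *MRPS11*, which lie within that region, held none of the 5 motifs. The window searched around the start of *MRPL46*, which reaches beyond these bases, held the YY1 letters.
MRPS11, chr15:88467458-88467707, plus strand: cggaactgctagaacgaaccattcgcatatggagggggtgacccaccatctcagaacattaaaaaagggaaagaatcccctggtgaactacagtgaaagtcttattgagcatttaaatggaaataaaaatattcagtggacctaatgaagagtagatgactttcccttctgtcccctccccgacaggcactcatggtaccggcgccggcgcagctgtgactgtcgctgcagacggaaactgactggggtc
*MRPL46* had 579, 345 and 382 reads and fell (−0.59 ± 0.15, adjusted p = 0.000541), whereas *MRPS11* had 596, 524 and 470 reads and did not pass the test. The log2 ratios of *MRPL46*, −0.72 and −0.46, did not overlap those of *MRPS11*, −0.16 and −0.21. The difference within the pair was not tested.

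Of the other members, 15 had a neighbour that was tested and is not itself a member. The median was −0.46 in these members, 11 of which were lower in dIWS1, and −0.60 in the neighbours, 11 of which were lower, and 5 of 15 members lay below their neighbour. Of all 24 members with a divergent neighbour 62.5% were lower, against 55.2% of all genes with such a neighbour (median −0.42). The widest gaps were those of *MRPS18C* and the helicase gene *HELQ*, which had 1299, 528 and 468 reads (−1.31, adjusted p = 8.74e-15), and of *MRPS18B* and *PPP1R10*, a regulator of protein phosphatase 1, which had 2260, 853 and 882 (−1.30, adjusted p = 4.74e-13). *MRPL27* (−0.38, adjusted p = 0.0249) and *EME1* (−1.07, adjusted p = 1.04e-06) also stood apart. The 5 members below their neighbour were *MRPL30* (*MITD1*), *MRPL50* (*ZNF189*), *MRPS2* (*PIERCE1*), *MRPS7* (*GGA3*) and *MRPS12* (*SARS2*).

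**Figure D5:**
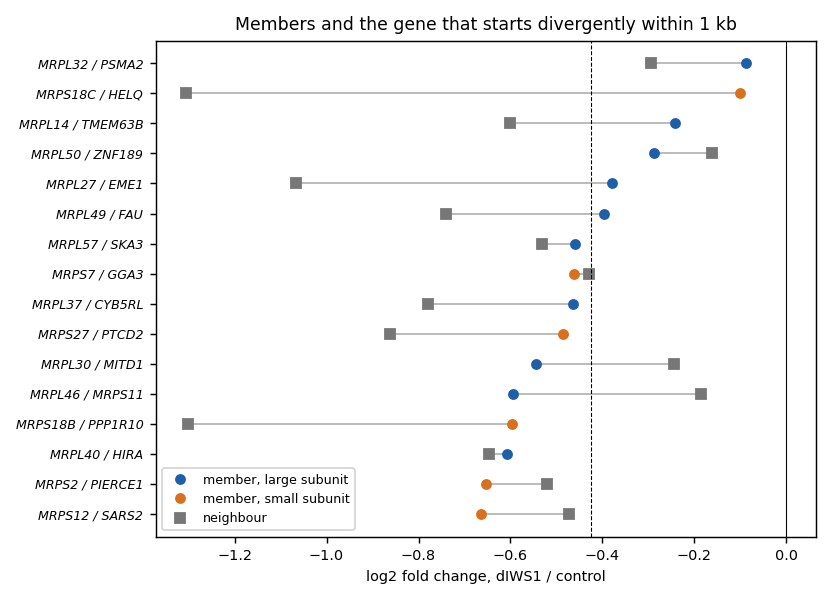
Log2 fold change, dIWS1 over control (horizontal axis), of members (circles, blue for large and orange for small subunit) and of the gene that starts within 1000 bp on the opposite strand (grey squares), 1 pair per row, with *MRPS11* drawn as the neighbour of *MRPL46*. The dashed line is the median of all genes (−0.42); *HELQ* and *PPP1R10*, near −1.3, lie farthest from their partners.

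Other genes of mitochondrial translation were examined in 3 lists. Of 6 genes for mitoribosome proteins with other names, 5 were tested and 3 were lower (median −0.41). *ICT1*, a peptidyl-tRNA hydrolase built into the large subunit and now named *MRPL58*, was the lowest (−0.60, adjusted p = 0.000671) and *GADD45GIP1* the highest (−0.23, adjusted p = 0.241). *AURKAIP1* (−0.54, adjusted p = 0.00242) and *CHCHD1* (−0.41, adjusted p = 0.049), both of the small subunit, fell too, and *DAP3*, a GTP-binding small subunit protein, did not pass the test (−0.30, adjusted p = 0.155).

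Of 28 assembly factors, 26 were tested and 17 were lower (median −0.48). The lowest were the rRNA methyltransferase *MRM1* (−0.80, adjusted p = 3.15e-06), the endoribonuclease *YBEY* (−0.77, adjusted p = 0.000246), and the rRNA methyltransferases *METTL15* (−0.72, adjusted p = 0.000642) and *NSUN4* (−0.70, adjusted p = 0.000348). The highest was *MALSU1*, which keeps immature large subunits from joining (−0.24, adjusted p = 0.168). Of 16 translation factors, 15 were tested and 8 were lower (median −0.35). The recycling factor *MRRF* (−0.83, adjusted p = 7.83e-05) and the initiation factors *MTIF2* (−0.74, adjusted p = 4.35e-05) and *MTIF3* (−0.72, adjusted p = 3.43e-05) were lowest. *MTFMT*, which formylates the initiator tRNA (−0.10, adjusted p = 0.552), and the release factor *MTRF1L* (−0.09, adjusted p = 0.613) were highest. Over the 3 lists 28 of 46 genes (60.9%) were lower and 0 higher, close to the members and to all genes. Relative to the median gene 5 of the 46 were lower and 4 higher.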

How the data were processed

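TT-seq was analysed in K562 dTAG-IWS1 cells, with 2 control and 2 dIWS1 libraries in the labels. The authors aligned reads with STAR 2.6.0 to GRCh38 with spike-in sequences, kept unique alignments, counted read pairs per RefSeq gene by strand, removed overlapping genes and genes of low coverage, and fitted DESeq2 with spike-in size factors. The deposited table gives for each gene a mean signal, that is, read counts scaled by the size factors and averaged over both groups. It also holds the authors' comparison as a log2 fold change with its standard error, test score and p-values, and none of these is reported. The deposited log2 fold change was used only to bound the recovery of reads and to tell which columns form an arm, and its direction was read as dIWS1 over control from the study's text.

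Reads per column were recovered by writing each deposited mean signal as a sum of whole multiples of 3 steps. All 10136 means above 0 could be split in 1 way, and of the 73 members 72 had 1 solution from the mean alone. Genes with at most 3 reads in every column were left out. The main test was limma 3.58.1 (lmFit, eBayes with trend; R 4.3.3) on log2(scaled reads + 0.5), 1 control column against 2 dIWS1 columns, two-sided, with Benjamini-Hochberg adjustment over 10027 genes. Fold changes are on the log2(scaled reads + 0.5) scale. Since the control is 1 column, its variance was assumed to equal that of dIWS1. The p-values rest on the spread between the 2 dIWS1 columns, largely as pooled by a trend over genes of similar level. They therefore say little about the spread of the single gene. A biological origin of the 2 columns is stated in the study's methods but not in the labels. On simulated data the script called 187 of 200 changed genes and 7 unchanged genes of the 10027, and with the control entered 2 times 186 and 686. In that simulation only these 200 genes changed, up as often as down, and the spread between columns followed a fixed setting. It held no general fall and no shift between columns, unlike these data, so its rates do not carry over to the calls given here.

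The members and lists were chosen with earlier results of these data known. Genes given in full were the 6 lowest and 6 highest of each subunit, the 3 highest per kb, the members with the largest adjusted p, the *MRPS18* paralogues and *MRPS30*, and the lowest, the highest and up to 3 further genes of each list. The table was foreseen to hold no counts per library. Spans, starts and promoters came from RefSeq (GRCh38.p14), with 72 members matched by symbol and 1, *MRPS36*, by a synonym, and GC content was computed over the span. The RefSeq spans of 12 members overlap another gene tested. *MRPL45* and *MRPS31* have pseudogene copies in the table. Alternatives were other scalings, pseudocounts, filters, thresholds, limma voom, the control entered 2 times, and leaving out each dIWS1 column.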

Additional observations from a re-analysis of the deposited data

How the results depend on the processing

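Scaling decided the counts. Scaled to total reads in genes, 2 members were lower and 13 higher, and recentred on the median gene 4 and 12, in place of 42 and 0. Of the 10027 genes tested, 1091 were lower and 1528 higher under total reads, and 1345 and 1419 when recentred. The subunit medians became −0.019 and −0.037 in the large and 0.046 and 0.027 in the small subunit, so the latter turned sign, while their difference was −0.065 and −0.064. Recentring also changed the lower calls of assembly factors from 17 to 3, of other mitoribosome proteins from 3 to 0 and of translation factors from 8 to 2, the last with 4 higher.

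Of the 32 genes given in full, 15 turned sign under total reads and recentring, respectively (other members were not followed here): *MRPL13* 0.37 and 0.35, *MRPL14* 0.20 and 0.18, *MRPL32* 0.35 and 0.34, *MRPL33* 0.34 and 0.32, *MRPL39* 0.33 and 0.31, *MRPL47* 0.27 and 0.25, *MRPS5* 0.29 and 0.27, *MRPS11* 0.26 and 0.24, *MRPS16* 0.042 and 0.023, *MRPS17* 0.22 and 0.20, *MRPS18C* 0.34 and 0.32, *MRPS25* 0.095 and 0.075, *MRPS30* 0.15 and 0.13, *MRPS35* 0.27 and 0.25, and *MRPS36* 0.35 and 0.34.

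Under a pseudocount of 5 and minimum means of 10 and 100, 42, 42 and 40 members were lower and 0 higher. The same settings called 5521 of 10027, 5461 of 9917 and 5104 of 8900 genes tested lower. An adjusted p under 0.01 left 32 members, and a log2 change of at least 0.5 in size 30. With the control entered 2 times 59 were lower and with limma voom 50, the 42 included in both. Over all genes these fits called 7807 and 6508 lower, against 5481. Leaving out each dIWS1 column gave medians from −0.53 to −0.36 (large), from −0.43 to −0.32 (small) and differences from −0.10 to −0.05, without a test. No paired analysis was possible because the recovered columns carry no replicate numbers. With 1 control column, the spread of the control was not measured, and members with about 100 reads have the largest standard errors.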
